A study of Mus musculus with 9 samples.

Results

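UBTF is the high mobility group box protein that coats active ribosomal RNA genes (rDNA) and keeps them open for RNA polymerase I. It has no single sharp recognition sequence, bends and wraps the DNA it binds, and chromatin studies have also found it away from rDNA, where it often lies at GC-rich starts of genes that RNA polymerase II transcribes. A promoter is the stretch around the start of a gene where transcription begins. Many mouse promoters are CpG islands, GC-rich stretches that keep the CG dinucleotides lost from most of the genome. The data below describe the UBTF peaks that lay at the starts of protein-coding genes.

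Members were selected on measured values. From each of the 6 UBTF peak lists the 20000 peaks with the highest score outside rDNA were taken, and a peak was kept when its summit, the position of highest signal, lay within 1 kb of the start of a protein-coding gene on chromosomes 1 to 19. Gene symbols starting with Hist, the replication-dependent histone genes, were left out. This gave 4035 promoter peaks among the 111655 best-scoring peaks on these chromosomes and the 1796553 peaks of all ranks outside rDNA. They lay at 2304 of 21351 genes, and 240 genes were held by 4 or more lists and are called shared genes here.

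UBTF was measured by chromatin immunoprecipitation and sequencing (ChIP-seq) in primary pre-B cells, the B cell precursors sorted from the bone marrow of C57BL/6 mice. The labels give 1 gate for all stages, B220 high, IgM low and IgD low, while the study's methods give it for wild type and premalignant cells and describe malignant cells as B220 positive and negative for IgM and IgD. Malignant cells came from both sexes and the others from females. Stage and gate cannot be told apart. The study asked how UBTF and chromatin change as B cells become malignant. The 3 input samples were not analysed here, so none of the values has an input background beside it. Each stage had 2 UBTF libraries, numbered 1 and 2.

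The wild type mice carried no transgene and were 4 to 6 weeks old. The premalignant mice were of the same age and heterozygous for Eµ-Myc, a transgene in which the immunoglobulin heavy chain enhancer drives Myc in B cells. The malignant mice carried the same transgene, had developed spontaneous lymphoma and were 10 to 20 weeks old. The antibody was a rabbit serum raised against both protein forms, UBTF1 and UBTF2, and individual animals served as replicates. Lymphomas of this model are clonal, so each malignant library stands for 1 tumour. Peaks carry no expression level, so the sorted cell type could not be checked against its marker transcripts.

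The lists differed in make-up before any promoter was looked at. They held between 78074 and 575596 peaks outside rDNA. The narrowest peak measured 240 to 260 bp in the wild type lists and in premalignant replicate 1, here the narrow-peak lists. It measured 670 to 800 bp in the malignant lists and in premalignant replicate 2, the wide-peak lists. Between wild type and malignant, stage and peak width cannot be told apart. The files give no read counts, and the depth of a library is unknown. Ranks within a list were therefore compared, never scores between lists.

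Of the 12 promoter summits that came highest by mean rank in all 6 lists, all but that at Jsrp1, on copied sequence, lay on tandem repeats or on GC-rich unique sequence. Examples are shown first, as the summit base with 50 bases on either side, from the best-ranked list, in the plus strand of mm9. All windows lie outside annotated exons. In the first 4, which come from the best-ranked genes by mean rank, capitals mark the longest exact tandem repeat of a unit of 1 to 6 bp within the window.

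Gm10281, chr10:43170222-43170322: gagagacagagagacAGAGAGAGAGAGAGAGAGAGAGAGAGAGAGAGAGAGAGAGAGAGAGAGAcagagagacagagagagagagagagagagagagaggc
Tas2r134, chr2:51482193-51482293: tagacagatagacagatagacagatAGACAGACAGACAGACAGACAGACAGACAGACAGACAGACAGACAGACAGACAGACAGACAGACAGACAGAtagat
Trim29, chr9:43118214-43118314: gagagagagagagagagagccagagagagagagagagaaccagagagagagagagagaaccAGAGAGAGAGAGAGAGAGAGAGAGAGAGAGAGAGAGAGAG
Gpr141, chr13:19916476-19916576: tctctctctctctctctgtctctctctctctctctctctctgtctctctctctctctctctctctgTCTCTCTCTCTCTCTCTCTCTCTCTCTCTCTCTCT

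The next 4 windows hold no such repeat, and capitals mark every CG dinucleotide. Elf1 comes from the same ranking, with a mean rank of 573, where Hmgxb4, whose window is not printed, had 572. The other 3 were chosen after values were seen, as single-copy windows without an exon at island-like starts of genes in all 6 lists, by mean rank. Their richness in CG follows from that choice.

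Elf1, chr14:79880552-79880652: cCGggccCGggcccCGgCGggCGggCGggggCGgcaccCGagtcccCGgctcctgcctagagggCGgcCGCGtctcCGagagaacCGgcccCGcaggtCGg
2810407C02Rik, chr3:58380907-58381007: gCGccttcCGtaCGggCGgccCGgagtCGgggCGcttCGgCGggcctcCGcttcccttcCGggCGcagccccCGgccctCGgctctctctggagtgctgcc
Nipbl, chr15:8393794-8393894: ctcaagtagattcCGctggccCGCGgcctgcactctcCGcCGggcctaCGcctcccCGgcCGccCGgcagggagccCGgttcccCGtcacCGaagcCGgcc
Usp3, chr9:66440443-66440543: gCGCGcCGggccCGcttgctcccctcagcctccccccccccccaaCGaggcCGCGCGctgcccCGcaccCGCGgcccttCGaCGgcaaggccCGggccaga

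The first 4 windows held 0 CG dinucleotides and 44.6% to 51.5% GC. The 4 GC-rich ones held 13 to 16 CG dinucleotides and 76.2% to 84.2% GC. The Elf1 window lies in an intron of the neighbouring gene Wbp4, which encodes a splicing factor and is read in the opposite direction. Those at 2810407C02Rik, Nipbl and Usp3 lie in introns of these genes themselves. Elf1 encodes an ETS family transcription factor of lymphoid cells, Nipbl the loader of cohesin onto chromatin and Usp3 a histone deubiquitinase.

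Promoter summits were a small part of each list. The wild type libraries held 698 and 491 promoter peaks, the premalignant libraries 847 and 342, and the malignant libraries 938 and 719. Premalignant replicate 2 was the lowest and malignant replicate 1 the highest, and the spread within the premalignant stage was wider than the gap between any stage means (wild type 594 ± 146, premalignant 594 ± 357, malignant 828 ± 155, SD, n = 2 each). As a share of the best peaks on chromosomes 1 to 19 this was 3.68% and 2.58%, 4.49% and 1.88%, and 5.08% and 3.96%. Positions within 1 kb of a gene start make up 1.63% of these chromosomes, so the promoter share was 1.15 to 3.11 times the genome's share, lowest in premalignant replicate 2 and highest in malignant replicate 1.

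Counted by gene, 732 genes in wild type replicate 1 and 503 in wild type replicate 2 had a promoter summit, which is 3.43% and 2.36% of all genes. In the premalignant libraries the counts were 860 and 354 genes, 4.03% and 1.66%. In the malignant libraries they were 953 and 769, 4.46% and 3.6%. These percentages are the backgrounds for the gene lists further on. The best promoter peak ranked 19, 42, 34, 53, 47 and 49 in the 6 lists in the order wild type, premalignant and malignant, so promoter summits were present near the top of every list. The median rank lay between 8914 and 12879.

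The limit of 20000 peaks cut through promoters as through other sites. The last promoter inside was C130073F10Rik at rank 20000 in wild type replicate 1, Qrfpr at 19937 in wild type replicate 2 and Rnf146 at 19993 in premalignant replicate 1. In the other lists it was 1110059E24Rik at 19893, Cd151 at 19979 and Pm20d2 at 19993. The first outside were Ubtf itself at 20001, Tex2 at 20051, Flii at 20021, Rgs10 at 20040, Mkrn2 at 20018 and Lpp at 20001, in the same order. In premalignant replicate 1 a run of 380 peaks tied in score at the limit, against 1 to 8 in the others.

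Summits piled up at the gene start in all 6 lists. The fullest 100 bp bin was the one just before the start in both wild type libraries, premalignant replicate 1 and malignant replicate 1, with 114, 69, 133 and 151 summits. In premalignant replicate 2 and malignant replicate 2 it was the bin just after the start, with 61 and 146. The median bin between 2000 and 5000 bp from the start, on either side, held 12 summits in each narrow-peak list and 5 to 7 in the wide-peak lists. Summits thinned out between 100 and 200 bp downstream in both wild type libraries, to 34 and 18, and rose again to 57 and 31 in the next bin. The same dip was seen in premalignant replicate 1 (51 and then 78) and malignant replicate 1 (98 and then 110). Replicate 2 of both Eµ-Myc stages had none, with 47 and then 44, and 91 and then 83.

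**Figure D1:**
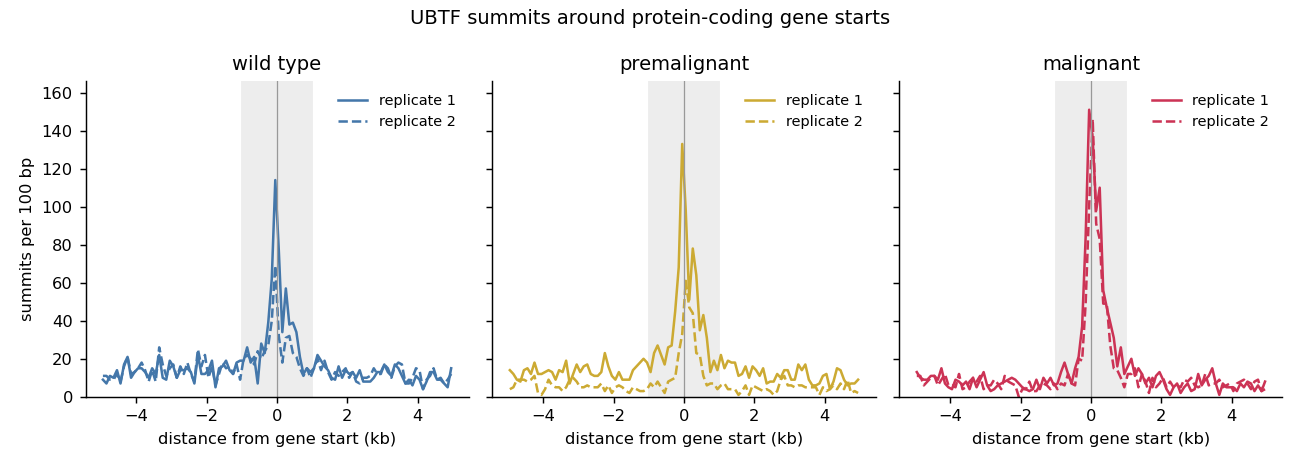
UBTF summits among the best 20000 peaks per 100 bp bin (y axis) against the distance from the nearest protein-coding gene start in kb (x axis, positive downstream), for 2 libraries of each stage (solid, replicate 1, dashed, replicate 2). The grey band marks the 1 kb window of the rule, and the highest bin of each library, 61 to 151 summits, touches the start.

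The side of the start differed among libraries. Downstream summits made up 48.9% and 42.2% in the wild type libraries, 52.7% and 67.8% in the premalignant ones, and 61% and 68% in the malignant ones. Both Eµ-Myc stages lay above both wild type libraries, and the premalignant and malignant values overlapped. The difference was 14.7 percentage points for premalignant minus wild type (60.2 ± 10.7 against 45.5 ± 4.73, SD, n = 2 each, exact permutation test, two-sided p = 0.333, adjusted p = 0.429). It was 19 points for malignant minus wild type (64.5 ± 4.97, exact p = 0.333, adjusted p = 0.429) and 4.25 points for malignant minus premalignant (exact p = 0.667, adjusted p = 0.75). With 2 libraries against 2 the smallest p that the exact test can give is 0.333, so no stage difference here could pass 0.05. Adjustment was over the 9 stage tests. Among the narrow-peak lists, premalignant replicate 1 was 7.15 points above the wild type mean. Without premalignant replicate 1 the premalignant minus wild type difference was 22.3 points.

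The distance from the start was smallest in the malignant libraries. The median absolute distance was 263 and 346 bp in the wild type libraries, 256 and 213 bp in the premalignant ones, and 200 and 178 bp in the malignant ones, with no overlap between any 2 stages. The mean difference was -70 bp for premalignant minus wild type, -45.5 bp for malignant minus premalignant and -116 bp for malignant minus wild type (exact permutation test, two-sided p = 0.333 and adjusted p = 0.429 for each). These differences were smaller without repeats and copied sequence, described below. Without summits on tandem repeats the malignant minus wild type difference was -33.8 bp, and without several-copy sequence as well it was -7.75 bp. The medians of the Eµ-Myc libraries, 166 to 188 bp, then lay between the wild type ones, the lower of which was 152 bp. Within 500 bp of the start it was -31.8 bp. Without wild type replicate 2, the difference was -28.5 bp for premalignant minus wild type and -74 bp for malignant minus wild type. Without wild type replicate 1 these were -112 and -157 bp. Among the narrow-peak lists, premalignant replicate 1 was 48.5 bp below the wild type mean. Among the wide-peak lists, premalignant replicate 2 was above the mean of the malignant lists (difference -24 bp, malignant minus premalignant). Summits within 100 bp of the start made up 20.6% to 30.7% in all libraries except malignant replicate 2, with 34.5%.

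GC content under the summits was high and came in 2 groups of values. The median over the summit and 100 bp on either side was 70.6% and 57.7% in the wild type libraries, 71.6% and 79.1% in the premalignant ones, and 72.1% and 79.1% in the malignant ones. Summits of the same lists away from gene starts had medians of 39.8% to 48.8%. Both Eµ-Myc stages lay above both wild type values, and they overlapped each other. The mean difference was 11.2 percentage points for premalignant minus wild type (75.4 ± 5.28 against 64.2 ± 9.15, SD, n = 2 each, exact p = 0.333, adjusted p = 0.429), 11.4 for malignant minus wild type (75.6 ± 4.93, exact p = 0.333, adjusted p = 0.429) and 0.249 for malignant minus premalignant (exact p = 1, adjusted p = 1). Wild type replicate 2 set the size of the first 2 differences, which were 4.73 and 4.98 points without it and 17.7 and 17.9 without wild type replicate 1. Both were 2.49 points with the best 40000 peaks and 3.23 points within 500 bp of the start.

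**Figure D2:**
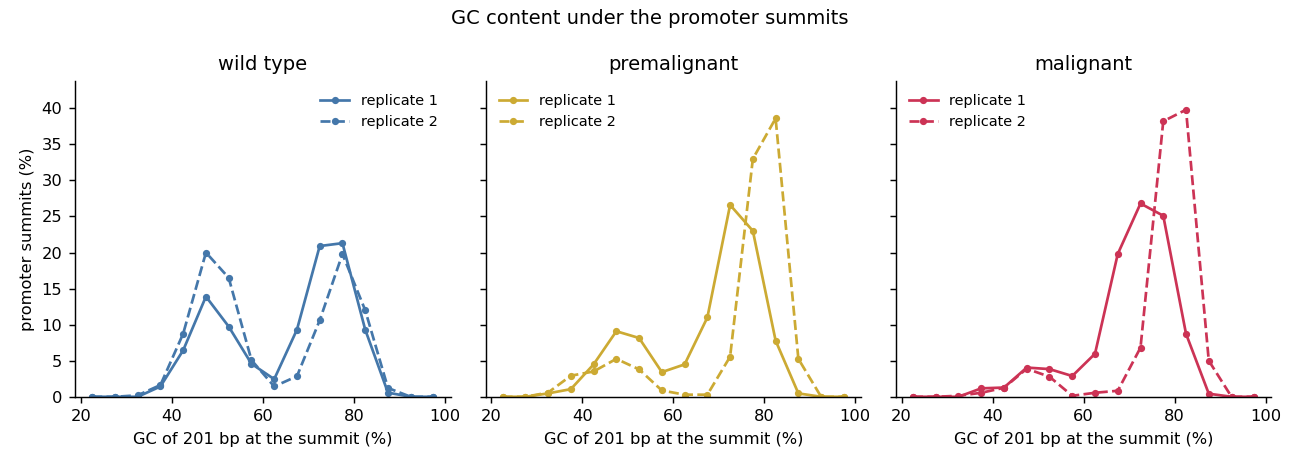
Percent of promoter summits (y axis) by GC content of 100 bp on either side of the summit (x axis, bins of 5 points), for each library (solid, replicate 1, dashed, replicate 2). The group of values between 45 and 55% GC is largest in wild type replicate 2, and the GC-rich group of premalignant and malignant replicate 2 peaks at 80 to 85%, with 38.6% and 39.8% of summits.

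Part of the lower group lay on tandem repeats, exact repeats of at least 40 bp of a unit of 1 to 6 bp like those printed above. Of summits below 60% GC, repeats made up 81.7% and 78.5% in the wild type libraries, 77.4% and 44.8% in the premalignant ones, and 56.5% and 49.2% in the malignant ones. In premalignant replicate 2 another 53.4% had several copies without such a repeat. Among all promoter summits, repeats lay under 30.8% and 42.2% of wild type promoter summits, 21.8% and 7.89% of premalignant and 8.1% and 4.87% of malignant ones. Both wild type libraries lay above all others, and premalignant replicate 2 was below malignant replicate 1. Repeat summits had median GC contents of 48.8% to 50.7% and lay mostly upstream, with medians of -254 to -552 bp and 25.7% to 32.9% of them downstream of the start.

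Without the repeat summits, the GC medians were 74.1% and 75.6% in the wild type libraries, 73.6% and 79.6% in the premalignant ones, and 72.6% and 79.6% in the malignant ones. The stage means then differed by 1.74 points (premalignant minus wild type) and 1.24 points (malignant minus wild type, exact p = 1 for both). The 2 highest values belonged to replicate 2 of both Eµ-Myc stages and were equal to 1 decimal. Their deposited lists are also the only ones with quotation marks around the values, and the part of the file's making in the GC content was not tested. Downstream summits without repeats made up 56.7% and 52.8%, 59.4% and 71.1%, and 63.5% and 70.2%. Both Eµ-Myc stages thus still lay above wild type, by 10.5 and 12 points (exact p = 0.333 for both). Premalignant replicate 1, the narrow-peak list among the Eµ-Myc libraries, was the lowest of them at 59.4%. The part of peak width in these differences was not tested.

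Sequence of several copies was counted apart, because short reads can map to any of the copies. The median 24-base word around the summit occurred at least 2 times in mm9 for 24.1% and 36.7% of wild type promoter summits, 18.7% and 16.4% of premalignant and 13% and 10% of malignant ones. The study's methods name bowtie2 with default options, under which a read with several equally good places is put at 1 of them.

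Genes with promoters rich in GC were held more often. Genes were put into 10 groups by the GC content of the start and 500 bp on either side. In the group with the highest content (66.6% and above), 9.43% and 5.63% had a promoter summit in the wild type libraries, 11.6% and 8.33% in the premalignant ones, and 12.6% and 17.5% in the malignant ones. In the lowest group (40.8% and below) the shares were 1.03% and 1.08%, 1.08% and 0.329%, and 0.564% and 0.188%. The highest group exceeded the lowest in all 6 libraries. Malignant replicate 2 had the widest gap.

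**Figure D3:**
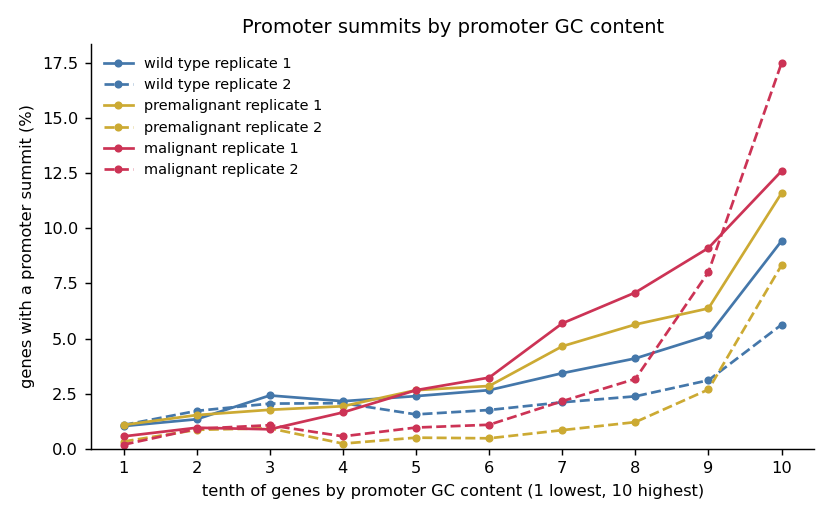
Percent of genes with a promoter summit (y axis) in each of 10 groups of the 21351 genes by GC content of 500 bp on either side of the start (x axis, 1 lowest, 10 highest), for the 6 libraries. All lines end highest in group 10, between 5.63% in wild type replicate 2 and 17.5% in malignant replicate 2.

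Starts were called island-like when these bases around the start had a GC content above 50% and an observed over expected CG count above 0.6. Of the 9606 island-like starts, 18.9% were held by 1 or more lists and 1.79% by 4 or more. Among the 11745 other starts the shares were 4.13% and 0.579%. Island-like starts made up 68.2% and 57.1% of genes in the wild type lists, 75.7% and 83.9% in the premalignant and 82.5% and 87.9% in the malignant lists, against 45% of all genes. Both Eµ-Myc stages lay above wild type in each library.

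Most genes were held by few lists. Of all genes, 10.8% were held by 1 or more lists and 1.12% by 4 or more. There were 1343 genes in a single list, 468 in 2, 253 in 3, 128 in 4, 51 in 5 and 61 in all 6. Since membership in several lists is what the rule counts, these numbers are a description.

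**Figure D4:**
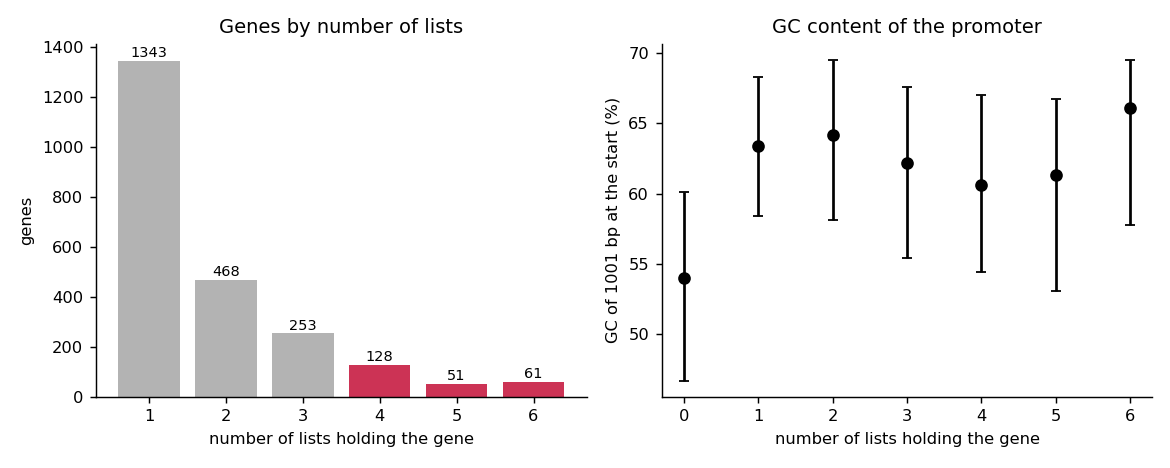
Left, number of genes (y axis) by the number of lists that hold them (x axis), with the 240 shared genes in red. Right, median GC content of 500 bp on either side of the start with the quartiles as bars, 54% for genes in no list, 63.4% and 64.2% for genes in 1 and 2 lists, 60.6% for genes in 4 and 66.1% for the 61 genes in all 6.

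Overlap between the lists was partial, within stages and between them. Wild type replicates had 338 genes in common, which is 46.2% of replicate 1 and 67.2% of replicate 2. The premalignant replicates had 123 in common, 14.3% and 34.7% of their lists, and the malignant replicates 206, 21.6% and 26.8%. Premalignant replicate 2 had 177 genes in common with malignant replicate 2, 50% of the first list and 23% of the second. Premalignant replicate 1 had 401 in common with malignant replicate 1, 46.6% and 42.1%. The crossed pairs had 184 (premalignant 1 with malignant 2) and 151 (premalignant 2 with malignant 1). Each premalignant list had more genes in common with either malignant list than with the other premalignant list, and list sizes ranged from 354 to 953 genes. Premalignant replicate 1 also had more in common with the wild type lists, 385 and 298 genes. Premalignant replicate 2 had 120 and 109 in common with them, fewer than the 123 of the premalignant pair.

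The 240 shared genes were held unevenly. Wild type replicates held 224 and 214 of them, premalignant replicates 220 and 113, and malignant replicates 223 and 139. The commonest combination, with 75 genes, was both wild type lists with premalignant replicate 1 and malignant replicate 1. Of the 127 shared genes missing from premalignant replicate 2, 103 had a summit within 1 kb at a lower rank, with a median rank of 78978. The same held for 80 of those missing from malignant replicate 2, with a median rank of 55724.

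By the sequence under their best-ranked summit, the shared genes fell into 3 classes. At 151 genes the sequence was unique and without a tandem repeat. Their starts were island-like in 94.7%, the median GC content at the summit was 78.6%, and 70.9% of these summits lay downstream. At 68 genes the summit lay on a tandem repeat, with the unit AG or its complement CT in 53 of them. Island-like starts made up 35.3% of these, the median GC content was 50.5% and 27.9% lay downstream, with a median position of -406 bp. The other 21 genes had sequence of several copies.

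All shared genes together had a median GC content of 61.6% around the start, against 55% for all genes, a difference of 6.54 points. Island-like starts made up 71.7% (172 genes). Genes in 1 or 2 lists had higher values, 63.4% and 64.2% GC and 81.6% and 79.7% island-like starts, so GC content did not rise steadily with the number of lists. Their best summit lay in an untranslated exon part for 57 genes, in a coding exon for 17, in another exon for 5, in an intron for 75 and between genes for 86. A tandem repeat lay within the 2 kb around the start in 33.3% of shared genes and 14.2% of all genes. A divergent partner, a gene that starts nearby on the other strand, was present in 11.2% of shared and 11% of all genes.

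Short sequence motifs were counted on both strands from 250 bp before to 50 bp after the start. The GC box, GGGCGG, the site of SP family factors, was found at 62.5% of shared genes and 43.8% of all genes. At the 151 with unique sequence it was 78.8%. The TATA box, TATAAA, was found at 7.5% and 13.4%, and the CCAAT box, CCAAT, at 30.4% and 37.4%. The E-box CACGTG, which MYC can bind, was present at 9.17% of shared genes and 7.8% of all genes. The ETS letters CCGGAAGT stood at 2.5% and 4.78%, and the NRF1 site at 4.17% and 6.16%. The CRE site TGACGTCA was found at 0.833% and 2.29% and the YY1 letters AAGATGGCG at 2.08% and 1.85%. These are counts of letters, some of which rise with GC content, and none says that a factor was bound.

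By mean rank over the 6 lists the first gene was Ino80d, which encodes a subunit of the INO80 chromatin remodelling complex. Its promoter peak ranked 110 and 112 in the wild type lists, 103 and 53 in the premalignant ones, and 109 and 49 in the malignant ones. Both replicates 2 of the Eµ-Myc stages ranked it higher than the other 4 lists. The summits lay 369 to 441 bp downstream of the start, in an untranslated exon part on chromosome 1 (summit at 63160800, mm9), and had 80.6% GC.

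Tandem repeats upstream of the gene start took the next places. The peak at Gm10281 ranked 19, 42, 34, 368, 47 and 214 in the usual order, and lay in an intron of Pdss2, a gene of coenzyme Q synthesis. It came ahead of Ino80d in 4 of the 6 lists. Tas2r134, a bitter taste receptor, ranked 137, 280, 231, 121, 91 and 215. Trim29, a tripartite motif protein of epithelia, ranked 196, 88, 212, 287, 444 and 190. Gpr141, an orphan receptor, ranked 111, 93, 150, 649, 202 and 508. At Gm10281 and Gpr141, premalignant replicate 2 gave the lowest place.

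The GC-rich summits at Elf1, Hmgxb4 and 2810407C02Rik ranked in another order. Elf1 ranked 632 and 1184 in the wild type lists, 754 and 129 in the premalignant ones, and 587 and 154 in the malignant ones. Hmgxb4, a high mobility group box gene, ranked 670 and 1332, 884 and 126, and 276 and 145. Its start has only 47.5% GC, while the summit has 77.6%. 2810407C02Rik ranked 704 and 1816, 732 and 163, and 375 and 158. In all 3, replicate 2 of both Eµ-Myc stages came first and wild type replicate 2 last.

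The last 3 of this group had repeats or copies under the summit as well. Jsrp1, a muscle calcium-release protein, ranked 385, 246, 341, 2802, 353 and 480, on sequence whose 24-base words occur a median of 9032 times in mm9. Trib3, a stress-response pseudokinase, ranked 696, 536, 586, 585, 1825 and 423, with a 60 bp GA repeat 315 to 323 bp downstream of its start. Fanci, a Fanconi anaemia gene of DNA crosslink repair, ranked 1238, 1046, 527, 1150, 997 and 1293, with a 72 bp CTCA repeat and summits 58 to 81 bp downstream.

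**Figure D5:**
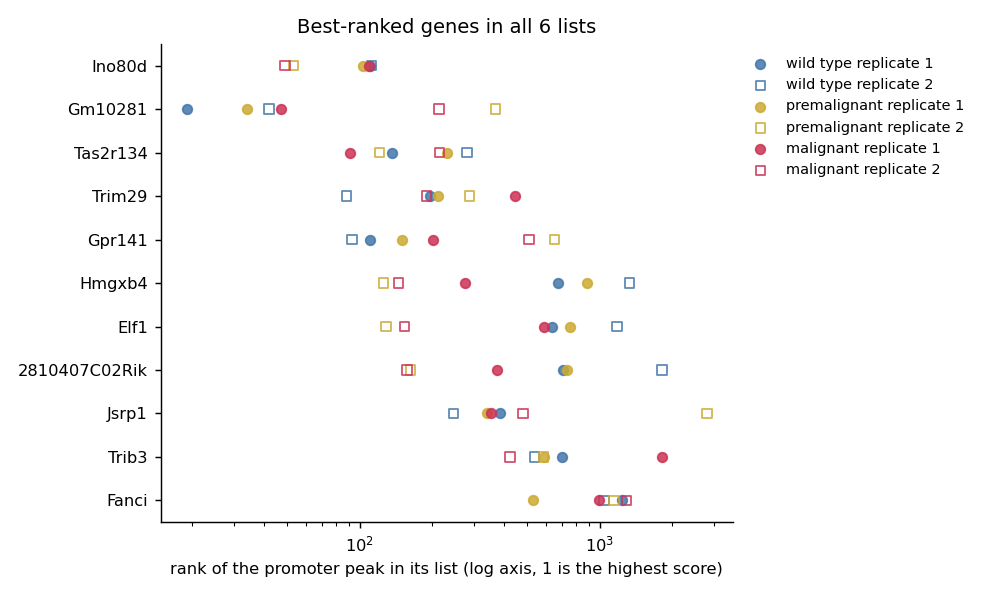
Rank of the promoter peak in its list (x axis, log scale, 1 is the highest score) for 11 of the 12 promoter summits with the best mean rank among those in all 6 lists (y axis, 1 gene named per summit), with filled circles for replicate 1 and open squares for replicate 2. Wbp4 shares the summit of Elf1. At Elf1, Hmgxb4 and 2810407C02Rik the open squares of premalignant and malignant replicate 2 lie leftmost, between 126 and 163.

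Few genes belonged to both lists of a stage and to no list of another. There were 44 of the 338 genes in both lists for wild type, 4 of 123 for premalignant and 36 of 206 for malignant. These genes were chosen for that pattern, so their ranks are a description. Island-like starts made up 27.3% of the wild type group and 97.2% of the malignant group, and all 4 of the premalignant one. Among all genes in both lists of a stage they made up 53.8% for wild type, 83% for malignant and 87.8% for premalignant.

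The 3 best-ranked of the wild type group were Slitrk3, a neuronal membrane protein, Triml2, and the olfactory receptor Olfr222. Slitrk3 ranked 3194 and 4242 in wild type and 86478 and 92062 in malignant lists, and all 3 had a tandem repeat at the summit (41 to 74 bp). The malignant group was led by Pkn2, a protein kinase C related kinase, Prex1, an activator of Rac, and Prkaa2, a catalytic subunit of AMP-activated kinase. Pkn2 ranked 8192 and 2344 in malignant and 34146 and 40829 in wild type lists. Prex1 ranked 4933 and 5786 against 32589 and 37031, and Prkaa2 8599 and 2811 against 44753 and 37279. All 3 thus had a wild type summit, below the limit. The premalignant group had Abl2, a tyrosine kinase, Phf2, a histone demethylase, and Cd47, a surface signal against phagocytosis, with ranks between 5179 and 18832 in its own 2 lists.

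Genes of ribosome production are those UBTF is best known for serving through rRNA. Of 14 RNA polymerase I machinery genes on these chromosomes, 2 were held by any list, which is 14.3%, beside 10.8% of all genes and 18.9% of island-like starts. Ubtf itself ranked 12927 in wild type replicate 2, 7619 and 1905 in premalignant and 4929 in malignant replicate 1, and lay outside the limit at 20001 and 117014 in wild type replicate 1 and malignant replicate 2. Its summits lay 346 to 727 bp downstream of the start. Polr1d, a subunit shared by RNA polymerases I and III, was held only by wild type replicate 1, at 15109. Of 39 nucleolar ribosome assembly factors only Wdr43, in malignant replicate 2 at 4401, was held, which is 2.56%, although 84.6% of them had island-like starts.

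Cytosolic ribosomal protein genes are among the most transcribed, and 90.8% of the 76 had island-like starts. Their shares in the 6 lists were 2.63%, 0%, 3.95%, 0%, 5.26% and 0%, each beside the background of its list above. Of these genes 7.89% were held by 1 or more lists, and none was shared by 4 lists. Rpl37 was held by 3, at 10442, 5495 and 1347 in replicate 1 of the 3 stages. Of 76 mitochondrial ribosomal protein genes 1, Mrpl40, was held by any list, which is 1.32%, although 80.3% of them had island-like starts. Of 64 translation factors 21.9% were held by 1 or more lists, beside 10.8% of all genes and 18.9% of island-like starts. Eif4ebp2, an inhibitor of cap-dependent translation, was in 3 lists with a GT repeat of 144 bp, and none was in 4. Of 51 splicing factors 11.8% were held by 1 or more lists and 0 by 4.

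Myc is the gene that the transgene overexpresses. Its promoter peak ranked 6196 in premalignant replicate 1 and 1380 in malignant replicate 1. It ranked 109507 in wild type replicate 2 and had no summit within 1 kb in the other 3 lists. The Eµ-Myc animals carry Myc sequence in the transgene as well, and peaks from the 2 sources cannot be told apart. Of 13 genes of the Myc network 2 were held by any list (15.4%), the other being Mlxip. All 13 have island-like starts. Among all genes 10.8% were held by any list, and among all island-like starts 18.9%. Of 20 p53, Arf and apoptosis genes 5 were (25%, with 80% island-like starts), among them Bbc3, which encodes the death-promoting protein PUMA, at 9685 in premalignant replicate 2 and 4144 in malignant replicate 2. Of 26 cell cycle genes 1 was (3.85%), Ccne1, encoding cyclin E1, at 6068 and 6593 in the malignant lists and 20899 to 46947 in the other 4.

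Pre-B cell markers were held at 2 of 9 genes by any list, beside 10.8% of all genes, and the lists of this paragraph are too short to read against that share. Pax5, the transcription factor that commits B cells, ranked 14523 in wild type replicate 1 and 11725 in malignant replicate 1. Ebf1, another B cell regulator, ranked 3330 in wild type replicate 1 with its summit 988 bp downstream, and had no summit within 1 kb in the other 5 lists at any rank. Of 21 B cell signalling genes 5 were held, and Bcl6, a repressor of germinal centre B cells, was shared, at 2369 and 3569 in wild type, 18914 in premalignant replicate 1 and 9976 in malignant replicate 1. Ikzf1, encoding the lymphoid factor IKAROS, was held by replicate 2 of both Eµ-Myc stages, at 12166 and 12330. T cell (6 genes), erythroid (3), myeloid (6) and natural killer cell markers (3) were held by 0 lists. Among replication-independent histone genes, 2 of 10 were held, H3f3a in 3 lists and H2afx in 2.

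Of 1081 olfactory receptor genes, none with an island-like start, 1.57% were in 1 or more lists, beside 4.13% of all starts without an island. The shared ones were Olfr1200 and Olfr902. Olfr1200 was in all 6, at ranks 3522, 2915, 3943, 8277, 5471 and 4624, with a 41 bp TC repeat at the summit. Vomeronasal receptors were held at 0.627% of 319 and keratins at 0 of 50, beside the same 4.13%. Zfp zinc finger genes were held at 11.2% of 357, close to the 10.8% of all genes, and 1 of them, Zfp341, was in all 6 lists, at 18044, 12569, 11170, 16084, 5586 and 1701. Hox genes were held at 12.5% of 40 and none was shared. Of 14 housekeeping genes 2 were held, Pkm2 and Eno1, both of glycolysis.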

How the data were processed

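UBTF peaks of 6 libraries were used. Per its methods section, reads were aligned by the authors using bowtie2 to mm9 with 1 rDNA copy added, duplicates were dropped with Picard, and SPP called peaks per library. The submitters' processing notes also name CASAVA 1.8.2 and Picard 1.110. The authors' deposited score of each peak gave its rank within its list only. The deposited q-values are false discovery rates on a linear scale (at most 0.000252 for a promoter peak), and the deposited p-value column holds a placeholder and was not used. Depth is unknown.

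Gene starts came from GENCODE M1 and sequence from NCBIM37, both of mm9. Where summits and starts paired several times, a gene took its best-ranked peak and a summit its nearest start. GC content and position were summarised per library as 1 value and compared between stages by a two-sided exact permutation test over libraries, with Benjamini-Hochberg adjustment over 9 tests. Genes are not replicates, and counts over them got no test. Functions were checked on 13 known answers. Python 3.11.15, pandas and pysam were used.

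The members and gene lists were chosen with earlier results of these data known. Named genes were first the 12 best by mean rank in all 6 lists, with 1 gene per summit. Wbp4, which shares the summit of Elf1, was therefore left out. Others were up to 3 members per gene list, by number of lists and then mean rank. The rest were 3 per stage for genes in both its lists alone, and those next to the limit. The values of 1 of the 12 are not reported here. Alternatives covered the number of peaks, the window, the start, merging, the false discovery rate, left-out libraries and the peak-width sets.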

Additional observations from a re-analysis of the deposited data

How the results depend on the processing

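Some of the alternatives could not change a direction or repeated another setting. Using the replicate number as a block keeps every difference, and the limit on the false discovery rate left all lists unchanged. The narrow-peak and wide-peak sets gave the values found without premalignant replicate 2 and without premalignant replicate 1. With these counted, the 9 stage differences kept their direction in 161 of 174 alternatives, reversed in 9 and were 0 in 4 (GC content, malignant minus premalignant). None reached a p below 0.333. The same-numbered libraries come from different animals and their deviations correlated weakly (0.0379, 0.0428 and 0.192 over 2304 genes). They were therefore not paired in the main tests. The highest value, 0.192, was that of premalignant with malignant. Their same-numbered lists had 401 and 177 genes in common, and the crossed pairs 184 and 151. Whether same-numbered Eµ-Myc libraries were handled together was not tested. With the replicate number as a block the differences were the same, for example 11.2 points of GC content for premalignant minus wild type, with exact p of 0.5 or 1, where 0.5 is the smallest possible.

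Malignant minus premalignant reversed for GC content to -3.48 points among the wide-peak lists, to -0.498 without tandem repeats and to -0.746 without repeats and several copies. Its downstream percent reversed to -3.34 among the wide-peak lists and -0.196 without repeats and several copies. In that last setting the distance of premalignant minus wild type became 5.5 bp. Leaving out a library moved malignant minus premalignant between -3.48 and 3.98 for GC content and between -3.34 and 11.8 for the downstream percent. The reversals came without premalignant replicate 1 for both, and without malignant replicate 2 for GC content (-3.23).

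The count of 240 shared genes became 66, 108 and 738 with the best 5000, 10000 and 40000 peaks, 493, 112 and 61 with 3, 5 and 6 lists required, and 149 without repeats and several copies. Without a library it ranged from 126 to 214, being 126 and 131 without wild type replicate 1 or 2, 128 without premalignant replicate 1 and 127 without malignant replicate 1, since 4 of 5 lists were then required. The GC difference of shared genes, 6.54 points, became 3.6 and 10.2 with 5000 and 40000 peaks, 9.59 without repeats and 10.8 without repeats and several copies. Settings that left out repeats or several copies were chosen after seeing the data. All lists passed the limit of 0.001 on the false discovery rate unchanged. The cause of these moves was not tested, and precision is limited by 2 libraries per stage and by unknown depth.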
